A study of Mus musculus with 8 samples.

Results

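The bone morphogenetic protein (BMP), transforming growth factor beta (TGF-beta) and activin pathway was followed through 50 named genes in embryonic mouse molars that had lost the Notch ligand gene Jagged1 (Jag1) from the epithelium. The genes were chosen by symbol, with no threshold on their values, as the ligands, receptors, secreted binding proteins, Smads and Id targets of the pathway. All 50 had a row among the 43629 genes of the count table, and all 50 passed the count filter of 10 counts in at least 2 embryos of the same genotype, together with 17129 genes in all.

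Ligands of this family are secreted dimers that bring together type I and type II serine/threonine kinase receptors. BMP receptors activate Smad1, Smad5 and Smad9, TGF-beta and activin receptors activate Smad2 and Smad3, and each set joins Smad4 to enter the nucleus, where the BMP set is known to switch on the Id genes. The family is best known in teeth for the exchange of BMP and activin signals between dental epithelium and mesenchyme, for the enamel knot, and for the differentiation of ameloblasts and odontoblasts, the enamel- and dentin-forming cells.

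The data were RNA-seq counts of lower first molars at E18.5, with 4 embryos of each genotype and both molars of an embryo pooled into 1 library. The WT embryos, labelled J3, J5, J6 and J7, carried the floxed Jagged1 allele (Jagged1 fl/fl) without Cre. The mutants, K14Cre;Jagged1 fl/fl embryos K14J26, K14J28, K14J29 and K14J30, carried the same floxed allele together with Cre under the keratin 14 promoter, which is active in epithelium, so that the mesenchyme of the mutant molars kept an intact Jag1. The comparison asked how loss of epithelial Jag1 shifted gene activity before birth, and the WT embryos were littermates of mutants. Which embryos shared a litter, and their sex, were not given.

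Total counts ran from 17327224 to 28613574 in WT and from 24692128 to 29792467 in mutants, so that 3 counts stood for 0.0998 to 0.166 CPM, the usual scale of counts relative to library size. Jag1 measured 95.2 to 104 CPM in WT and 34 to 57.1 CPM in mutants (log2 fold change -1.19 ± 0.14 SE, adjusted p = 0.00517). Defining markers of enamel- and dentin-forming cells were present in every library and moved with genotype. The summed level of 5 enamel genes was 557 to 3254 CPM in WT and 3503 to 114369 CPM in mutants, with 4 of the 5 higher, and that of 4 odontoblast genes was 708 to 1995 against 2347 to 7483 CPM, with 3 of 4 higher. The 6 dental epithelium genes summed to 4657 to 5371 against 5486 to 8083 CPM with 1 higher, 6 dental mesenchyme genes to 6649 to 11027 against 10066 to 29092 CPM with 2 higher and 3 lower, and 6 osteoblast genes to 729 to 908 against 1040 to 1176 CPM with 4 higher. Skeletal muscle transcripts stood out in WT embryos J6 and J7 (457 and 233 CPM summed over 10 genes, 6.81 to 22.1 CPM in the other 6 embryos), and the mutants K14J28 and K14J26 stood apart in other lists. K14J28 had the highest summed level of osteoclast (1283 CPM, 183 to 418 in WT), cornified oral epithelium (692 CPM, 22.5 to 143 in WT) and immune genes (171 CPM, 77.6 to 100.4 in WT). K14J26 had the lowest level of proliferation genes (388 CPM, 941 to 1136 in WT). Endothelial genes summed to 304 to 340 CPM in WT and 245 to 299.8 CPM in mutants, with 1 of 6 lower. Xist, the RNA of the inactive X chromosome of females, was at 1468 CPM or more in K14J28 and K14J29 and at 1.09 CPM or less in the other mutants and in all 4 WT embryos, so sex and genotype were partly confounded. With Xist level as a covariate, 9 of the 50 genes were called higher and 1 lower, where 1515 and 801 of all genes were called. Bmp5 (1.01, adjusted p = 0.0564), Nog (-0.59, 0.0623), Fst (-0.89, 0.116) and Id3 (-0.36, 0.0689) were then no longer called, at log2 fold changes no smaller in size than without it. Ltbp3 (1.06, 0.0272), Smad6 (0.69, 0.0335) and Tgfb3 (0.92, 0.0465), uncalled in the reported fit, were called with this covariate. In bulk tissue, fewer cells of a type and less RNA per cell cannot be told apart, and the part of tissue composition in the values below was not tested beyond the alternatives given.

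Of the 50 genes, 7 rose and 4 fell in mutants at an adjusted p under 0.05 (edgeR quasi-likelihood test, Benjamini-Hochberg over all genes tested). That was 22% of the pathway genes, where 16.1% of all genes tested were called. The upward calls made up 14% of the pathway genes against 9.52% of all genes, and the downward calls 8% against 6.61%. The rising genes were the ligands Bmp2 and Bmp5, the receptors Tgfbr2 and Acvr1b, and the extracellular proteins Ltbp2, Fstl3 and Chrdl1. The falling genes were the antagonists Nog and Fst, the signal transducer Smad1 and the target Id3. The study itself marked genes by a p up to 0.05 and a fold change threshold of 0.5. These are read here as an unadjusted p and a log2 ratio of that size in either direction. By these criteria 8 genes were higher and 3 lower, 22% of the set where 14.2% of all genes met them (8.33% higher and 5.85% lower). Those criteria added Tgfb3, Ltbp3 and Gdf6 and left out Acvr1b, Smad1 and Id3, whose changes were smaller. All 4 WT embryos were separated from all 4 mutants in 8 of the 50 genes, which at 16% was below the 24.2% seen over all genes tested. Across the 50 genes, 30 log2 fold changes were above 0 and 20 below, where 50.7% of all genes tested were above 0. With library size only as the scaling, the split was 24 above and 26 below. The median log2 fold change was 0.10 against 0.01 over all genes, and the median absolute value 0.25 against 0.22. The share of all counts taken by the 50 genes was 0.501 to 0.531% in every embryo of either genotype.

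**Figure D1:**
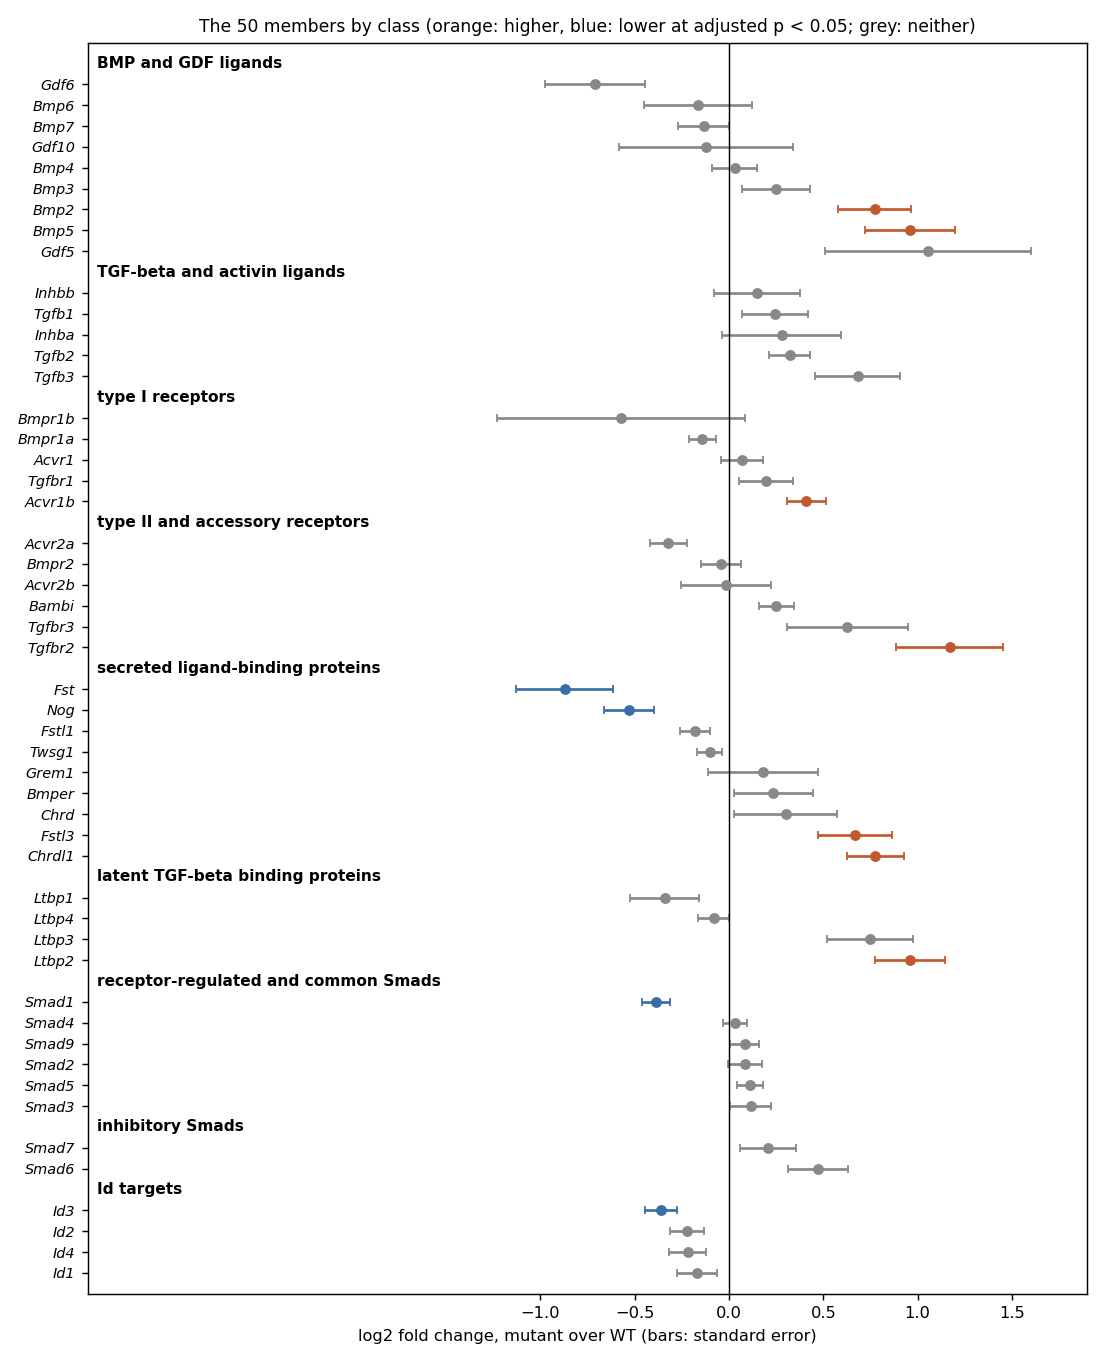
Log2 fold change of mutant over WT for each of the 50 genes, grouped by role, with bars of 1 standard error and colour for the call of the edgeR test. The values run from -0.87 for Fst to 1.17 for Tgfbr2, the 4 Id genes all lie below 0, and the 5 TGF-beta and activin ligands all lie above 0.

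The set spanned more than 3 orders of magnitude in level. Per kilobase of exon, the WT mean was 179 CPM for Fstl1, a secreted follistatin-like glycoprotein, 135 for Id3, 120 for Id1 and 89.9 for Id2. Bambi, a decoy receptor without a kinase, followed at 64.8 CPM per kilobase, Twsg1, a chordin partner, at 62.5 and Bmpr1a, the main type I BMP receptor, at 49.1. The WT ranges of Bambi (59.0 to 70.1) and Twsg1 (58.7 to 65.8) overlapped and the order of this pair changed between embryos. Those of Id3 (124 to 145) and Id1 (100.2 to 133) overlapped too, but Id3 was above Id1 in each of the 4 WT embryos. The lowest level was that of Bmpr1b, another type I BMP receptor, at 0.0859 CPM per kilobase, below Inhba at 0.244 and Gdf5 at 0.292.

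Among the 9 BMP and GDF ligands, 2 rose and none fell. Bmp2, a signal of the enamel knot and of differentiating odontoblasts (chr2:133552159-133562885), measured 20.5, 27.5, 33.4 and 23.3 CPM in WT embryos J3, J5, J6 and J7 and 45.9, 30.4, 52.1 and 50.6 CPM in mutants K14J26, K14J28, K14J29 and K14J30. The mutant K14J28 lay inside the WT range and the other 3 mutants lay above it. The log2 fold change was 0.77 ± 0.19 SE (adjusted p = 0.030), or 1.71-fold. Bmp5, a ligand close to Bmp6 and Bmp7 in sequence (chr9:75775364-75900310), measured 18.7, 31.5, 33.4 and 21.8 CPM in WT and 69.2, 48.8, 52.5 and 34.3 CPM in mutants. Every mutant was above every WT embryo, although K14J30 and J6 nearly met. The log2 fold change was 0.96 ± 0.24 SE (adjusted p = 0.0295). Exons of the antisense gene Gm26903 cover 46.7% of the exon bases of Bmp5 and the library kit does not keep strand, so reads of the pair cannot be told apart there, with Gm26903 itself counted at 0.902 CPM in WT and 1.77 CPM in mutants.

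The best-known tooth ligand of the group, Bmp4, which carries signal from epithelium to mesenchyme and back, did not pass the test, at 55.3 to 58.5 CPM in WT and 46.6 to 72.7 CPM in mutants. Bmp7 (100.5 to 104 CPM in WT, 75.4 to 124 CPM in mutants), Bmp3 (23.5 to 27.2 and 22.4 to 43.0 CPM) and Bmp6 (2.23 to 3.61 and 1.75 to 4.03 CPM) did not pass either. For Bmp4, Bmp7 and Bmp3, the WT embryos lay within 5 CPM of each other and the mutants spread on both sides of them, with K14J26 the highest mutant each time. The growth and differentiation factors were near the limit of counting. Gdf6, a joint and eye regulator, had 26 to 36 counts per WT embryo and 12 to 31 per mutant, or 1.01 to 1.72 against 0.577 to 1.03 CPM, and met the study's criteria (log2 fold change -0.71 ± 0.26 SE) without reaching an adjusted p under 0.05 (0.0925). Gdf5 (0.277 to 0.946 CPM in WT, 0.566 to 3.08 CPM in mutants) and Gdf10 (0.720 to 3.21 and 1.13 to 2.12 CPM) gave no call.

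None of the 5 TGF-beta and activin ligands was called. Tgfb3, the isoform best known from palate fusion, came nearest by size. It measured 52.6, 69.4, 53.5 and 65.0 CPM in WT and 131, 55.8, 108 and 91.5 CPM in mutants. K14J28 sat among the WT embryos and the other 3 mutants stood above all of them (log2 fold change 0.68 ± 0.23 SE, adjusted p = 0.066). Tgfb2, the most abundant of the 5 per kilobase of exon (29.4 CPM per kilobase in WT), measured 158 to 185 CPM in WT and 169 to 235 CPM in mutants (log2 fold change 0.32 ± 0.11 SE, adjusted p = 0.0689). Both had an unadjusted edgeR p under 0.05 (0.0137 and 0.0147), the only 2 of the 5 to do so. Over the 8 fits that left out 1 embryo, the adjusted p ran from 0.00604 to 0.158 for Tgfb3 and from 0.00733 to 0.17 for Tgfb2, and each passed the threshold in 1 of them, without K14J28. Under DESeq2 the adjusted p was 0.0169 and 0.0394, and with the enamel level as a covariate the log2 fold changes were -0.03 and 0.0034. Tgfb1, Inhba, which encodes the activin A subunit, and Inhbb, which encodes the activin B subunit, overlapped between genotypes, with Inhba at only 0.830 to 2.70 CPM across the 8 embryos.

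The receptors included 2 that rose. Tgfbr2, the type II receptor that binds TGF-beta and phosphorylates its type I partner (chr9:116084293-116175360), had the largest fold change of the 50 genes. It measured 111, 127, 140 and 112 CPM in WT and 460, 159, 275 and 209 CPM in mutants. No mutant reached down to the WT range, yet the mutants themselves were far apart, with K14J26 well above the rest and K14J28 just above J6. The log2 fold change was 1.17 ± 0.28 SE (adjusted p = 0.0275), or 2.25-fold. It was 0.81 without K14J26 and 0.07 with the enamel level as a covariate (adjusted p = 0.791), and the call held in 3 of the 8 fits that left out 1 embryo. Acvr1b, the type I receptor of activin and Nodal (chr15:101174067-101213684), measured 59.7, 63.0, 64.5 and 60.8 CPM in WT and 99.1, 69.3, 85.1 and 76.1 CPM in mutants. The WT embryos were tightly grouped and every mutant was above them (log2 fold change 0.41 ± 0.10 SE, adjusted p = 0.0314). Tgfbr1, the type I partner of Tgfbr2, showed no call at 119 to 135 CPM in WT and 107 to 189 CPM in mutants, and neither did the co-receptor Tgfbr3 (27.1 to 33.9 and 27.2 to 83.3 CPM), whose highest value was again in K14J26.

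The BMP receptors Bmpr1a (288 to 340 CPM in WT, 264 to 304 CPM in mutants), Bmpr2 (210 to 263 and 196 to 269 CPM) and Acvr1 (60.9 to 67.2 and 58.1 to 82.8 CPM) gave no call. Their fold changes lay between 0.906 and 1.05. Bmpr1b was counted 1 to 19 times per embryo, too few to order the genotypes. Acvr2a, a type II receptor shared by activins and BMPs, lay just outside the threshold, at 63.9, 68.9, 72.4 and 70.2 CPM in WT and 51.1, 66.9, 49.5 and 52.9 CPM in mutants (log2 fold change -0.32 ± 0.10 SE, adjusted p = 0.0552). K14J28 was within the WT range and the other 3 mutants were below it. Over the 8 fits that left out 1 embryo the adjusted p ran from 0.00587 (without K14J28, the only one to pass) to 0.144. The decoy receptor Bambi measured 299 to 356 CPM in WT and 331 to 431 CPM in mutants (log2 fold change 0.25 ± 0.09 SE, adjusted p = 0.094, and 0.0219 to 0.234 with 1 embryo left out). Acvr2b, the other activin type II receptor, was low in every embryo, at 1.72 to 3.32 CPM.

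**Figure D2:**
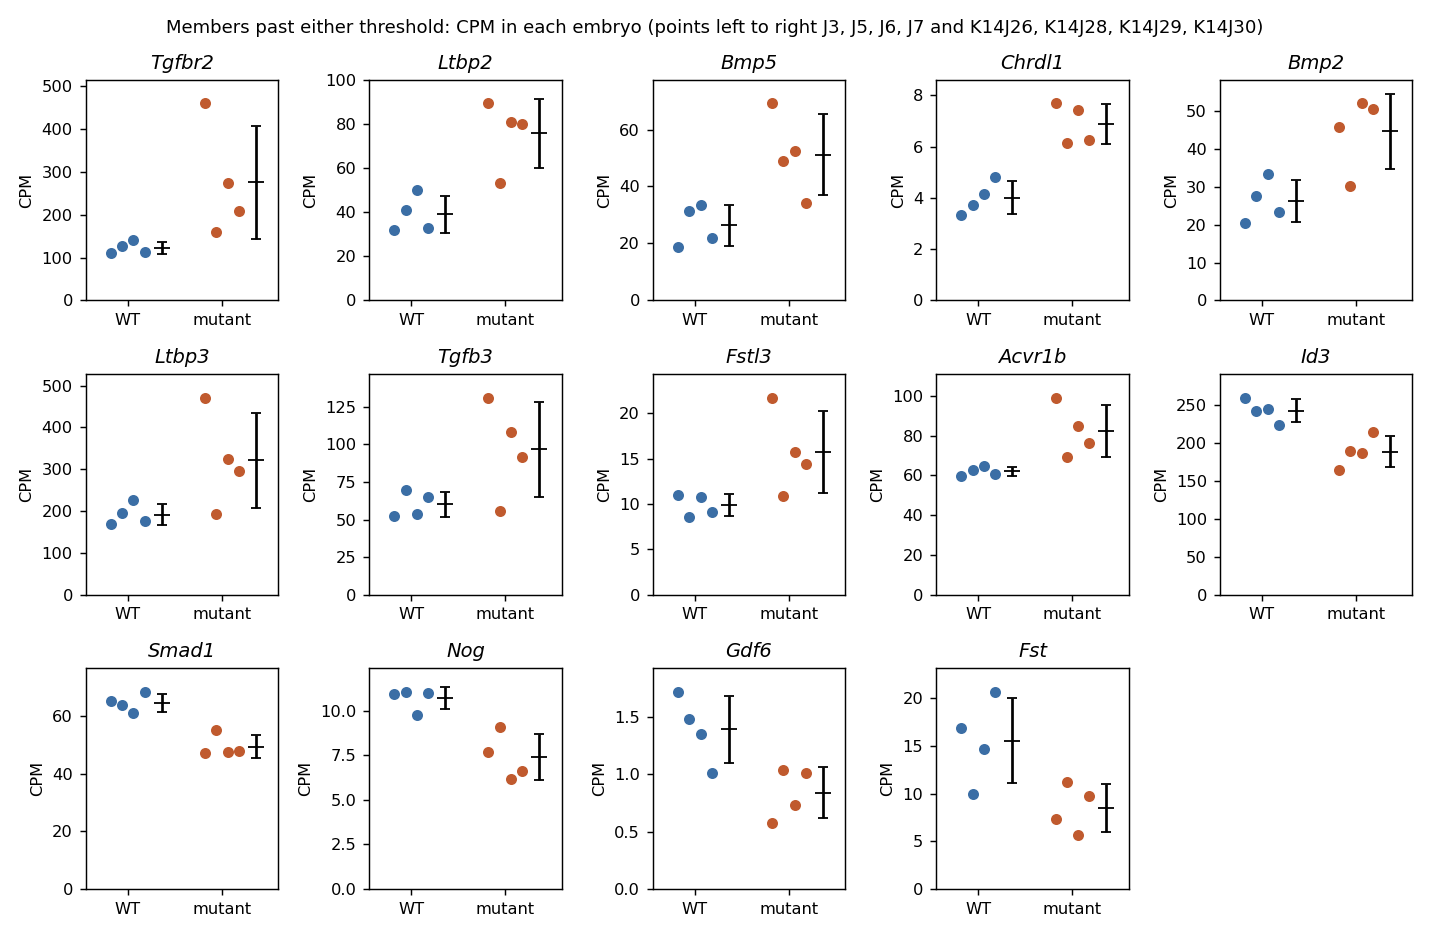
CPM of 14 pathway genes in each of the 8 embryos, with 1 panel per gene, 1 point per embryo in the order given in the text, and bars for the group mean and SD. The panels hold the 11 genes called by the edgeR test and the 3 that met the study's criteria alone (Tgfb3, Ltbp3 and Gdf6). K14J26 is the highest mutant in 6 of the 7 genes that rose and K14J28 the lowest in 6 of 7.

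Secreted binding proteins changed in both directions, with 2 of 9 higher and 2 lower. Nog encodes noggin, which binds BMPs and keeps them from their receptors (chr11:89300638-89302332). It measured 10.9, 11.1, 9.75 and 11 CPM in WT and 7.69, 9.08, 6.17 and 6.64 CPM in mutants. All mutants were below all WT embryos, and K14J28 was the closest to them (log2 fold change -0.53 ± 0.13 SE, adjusted p = 0.0313). Fst encodes follistatin, which binds activin with high affinity and some BMPs (chr13:114452290-114458951). It measured 16.8, 9.98, 14.6 and 20.7 CPM in WT and 7.36, 11.2, 5.65 and 9.70 CPM in mutants. WT embryo J5 lay below K14J28 and just above K14J30, so the genotypes overlapped, and the call was close to the threshold (log2 fold change -0.87 ± 0.26 SE, adjusted p = 0.0488).

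Fstl3, a follistatin relative that also binds activin (chr10:79777272-79782630), went the other way. It measured 11, 8.62, 10.8 and 9.09 CPM in WT and 21.7, 10.9, 15.8 and 14.4 CPM in mutants, with K14J28 between the WT embryos J3 and J6 (log2 fold change 0.67 ± 0.20 SE, adjusted p = 0.0477). The antisense gene Prss57 covers 47.3% of the Fstl3 exon bases and was itself counted at 0.461 CPM in WT and 0.663 CPM in mutants. Chrdl1, an X-linked chordin-like BMP antagonist (chrX:143285674-143394262), measured 3.32, 3.71, 4.15 and 4.83 CPM in WT and 7.69, 6.16, 7.45 and 6.25 CPM in mutants. It was low, but the genotypes were clearly apart and the 4 mutants lay close together (log2 fold change 0.78 ± 0.15 SE, adjusted p = 0.0166). It was at 0.80 with Xist as a covariate (adjusted p = 0.0356) and at 0.78 without K14J28 and K14J29 (adjusted p = 0.0409).

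The other 5 binding proteins gave no call. Chrd, which encodes chordin, was at 7.92 to 11.9 CPM in WT, and in mutants at 19.998 CPM in K14J26 and 8.85 to 9.84 CPM in the other 3. Bmper, a modulator that can block or help BMP4, was at 4.52 CPM in K14J26 and 8.30 to 8.75 CPM in the other mutants, against 5.71 to 7.57 CPM in WT. In both genes the value of K14J26 stood alone while the other 3 mutants lay close together. Twsg1 (303 to 339 CPM in WT, 281 to 318 CPM in mutants) and Fstl1 (825 to 973 and 709 to 847 CPM, log2 fold change -0.18 ± 0.08 SE, adjusted p = 0.132) were abundant, and Grem1, a BMP antagonist of the limb bud, was at 1.11 to 2.60 CPM in the 8 embryos.

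Latent TGF-beta binding proteins hold TGF-beta and related proteins in the extracellular matrix. Ltbp2, the member of this family that associates with microfibrils rather than with latent TGF-beta (chr12:84783212-84876532), measured 32.1, 41.0, 50.2 and 32.7 CPM in WT and 89.4, 53.3, 80.9 and 79.8 CPM in mutants. All mutants were above all WT embryos, K14J28 only just (log2 fold change 0.96 ± 0.19 SE, adjusted p = 0.0159). Ltbp3, whose human counterpart is mutated in a syndrome of short stature with thin enamel, measured 170, 195, 226 and 175 CPM in WT and 471, 194, 324 and 295 CPM in mutants. K14J28 was within the WT range and the other mutants were above it (log2 fold change 0.75 ± 0.23 SE, adjusted p = 0.0531). With 1 embryo left out, the adjusted p of Ltbp3 ran from 0.00766 (without K14J28, the only fit of 8 to pass) to 0.135, and it was 0.00858 under DESeq2 and 0.0687 under robust edgeR. Ltbp1 (93.4 to 103 CPM in WT, 50.7 to 107 CPM in mutants) had its lowest value in K14J26, the embryo in which Ltbp2 and Ltbp3 were highest, and Ltbp4 (92.5 to 108 and 85.9 to 107 CPM) overlapped throughout.

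Of the 6 receptor-regulated and common Smads, 1 fell. Smad1, the transducer of BMP receptors (chr8:79338395-79399518), measured 65.2, 63.6, 60.8 and 68.3 CPM in WT and 47.0, 55.2, 47.4 and 47.7 CPM in mutants. Its mutants were all below WT, with 3 of them within 1 CPM of each other and K14J28 higher. The log2 fold change was small but had the smallest adjusted p of the 50 genes (-0.39 ± 0.07 SE, adjusted p = 0.0149). The other BMP transducers Smad5 (188 to 205 CPM in WT, 201 to 236 CPM in mutants) and Smad9 (42.6 to 48.0 and 42.9 to 51.6 CPM) gave no call. Neither did Smad2, Smad3 and the common partner Smad4, with mutant-over-WT ratios of 1.06, 1.08 and 1.02. Among the inhibitory Smads, which block the receptors and are induced by the signal itself, Smad6 measured 36.1 to 49.3 CPM in WT and 42.1 to 69.8 CPM in mutants (log2 fold change 0.47 ± 0.16 SE, adjusted p = 0.0711). Smad7 was at 45 to 50.9 CPM in WT and 40.9 to 72.8 CPM in mutants, without a call.

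The Id genes encode helix-loop-helix proteins that hold back differentiation factors by binding their partners, and they are used as a readout of BMP signalling. Id3 fell, and the other 3 did not pass the test. Id3 (chr4:136143497-136145755) measured 259, 241, 244 and 223 CPM in WT and 164, 188, 187 and 214 CPM in mutants. The genotypes were apart, but by little between J7 and K14J30 (log2 fold change -0.36 ± 0.09 SE, adjusted p = 0.0273). Id2 measured 235, 235, 213 and 194 CPM in WT and 165, 180, 203 and 204 CPM in mutants (log2 fold change -0.22 ± 0.09 SE, adjusted p = 0.119). Its values in K14J29 and K14J30 lay above that of WT embryo J7. Id4 was at 108 to 146 CPM in WT and 103 to 119 CPM in mutants (-0.22 ± 0.10 SE, adjusted p = 0.148), and Id1 at 116 to 154 and 105 to 135 CPM (-0.17 ± 0.11 SE, adjusted p = 0.281). K14J26, the highest mutant for most rising genes, had the lowest value of Id3 and of Id2.

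The promoters of Id2, Id3 and Id4 are shown because these genes are textbook Smad targets, and those of Tgfbr2 and Ltbp2 because they had the largest fold change and the smallest adjusted p among the genes that rose. Each sequence runs from 250 bases before to 50 after the RefSeq start (GRCm38.p6), 5′ to 3′ on the strand of the gene, and capitals mark matches to the Smad box CAGAC or its reverse complement GTCTG, to the BMP Smad motif GGCGCC, which is its own reverse complement, and to the Notch-factor RBPJ core TGGGAA or its reverse complement TTCCCA.
Id2, chr12:25096043-25096342 (- strand): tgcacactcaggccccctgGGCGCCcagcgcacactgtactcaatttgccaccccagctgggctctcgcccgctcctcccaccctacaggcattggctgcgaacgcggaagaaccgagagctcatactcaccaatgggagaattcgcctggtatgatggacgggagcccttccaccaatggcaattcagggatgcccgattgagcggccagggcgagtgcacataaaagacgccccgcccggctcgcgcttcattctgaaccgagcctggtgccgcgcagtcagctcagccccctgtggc
Id3, chr4:136143572-136143871 (+ strand): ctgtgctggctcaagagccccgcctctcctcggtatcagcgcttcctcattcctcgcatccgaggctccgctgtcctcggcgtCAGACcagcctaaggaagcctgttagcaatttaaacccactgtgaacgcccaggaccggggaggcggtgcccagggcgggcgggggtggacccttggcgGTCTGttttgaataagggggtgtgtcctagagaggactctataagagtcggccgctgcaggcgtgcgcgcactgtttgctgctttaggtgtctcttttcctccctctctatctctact
Id4, chr13:48260866-48261165 (+ strand): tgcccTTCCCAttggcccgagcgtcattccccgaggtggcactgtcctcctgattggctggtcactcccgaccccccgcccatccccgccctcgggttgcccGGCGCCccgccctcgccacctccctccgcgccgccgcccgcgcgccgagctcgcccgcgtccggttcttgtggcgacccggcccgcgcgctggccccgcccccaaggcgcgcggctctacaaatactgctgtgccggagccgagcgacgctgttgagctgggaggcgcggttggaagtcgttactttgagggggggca
Tgfbr2, chr9:116175314-116175613 (- strand): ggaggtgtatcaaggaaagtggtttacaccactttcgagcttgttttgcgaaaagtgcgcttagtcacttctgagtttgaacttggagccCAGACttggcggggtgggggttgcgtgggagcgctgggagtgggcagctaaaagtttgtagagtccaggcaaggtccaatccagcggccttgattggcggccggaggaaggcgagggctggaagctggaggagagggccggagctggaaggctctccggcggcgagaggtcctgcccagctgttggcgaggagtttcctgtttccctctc
Ltbp2, chr12:84876442-84876741 (- strand): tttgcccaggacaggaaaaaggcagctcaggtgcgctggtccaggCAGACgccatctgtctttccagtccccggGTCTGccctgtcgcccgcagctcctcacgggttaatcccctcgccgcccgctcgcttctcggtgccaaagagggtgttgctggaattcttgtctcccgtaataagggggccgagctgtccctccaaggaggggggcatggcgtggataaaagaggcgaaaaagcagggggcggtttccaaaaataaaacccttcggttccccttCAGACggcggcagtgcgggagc
A promoter was given for 35 of the 50 genes, Id1 not among them. By the position of the first base relative to the start, Id2 held GGCGCC at -231, Id3 held CAGAC at -167 and GTCTG at -68, and Id4 held GGCGCC at -148 and TTCCCA at -245. Tgfbr2 held CAGAC at -160, and Ltbp2 held it at -205 and 29 and GTCTG at -176. Over 32851 promoters of this length, the Smad box in either orientation occurred in 49.6%, GGCGCC in 11.9% and the RBPJ core in 25.6%. Of the 43 promoters searched for the pathway genes, 20 held the Smad box, 14 held GGCGCC and 9 held the RBPJ core. A gene with several listed starts was counted at each. Starts on the chromosome of Bambi, Smad2, Smad4 and Smad7 were left out of the 43. No such step was made for the 35 genes or the 32851 promoters, so the counts and the shares are not like for like. The counts were not tested, and base composition was not matched. No match overlapped another in the 5 promoters shown, although GGCGCC and TTCCCA can each run into CAGAC. The matches describe the letters only.

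**Figure D3:**
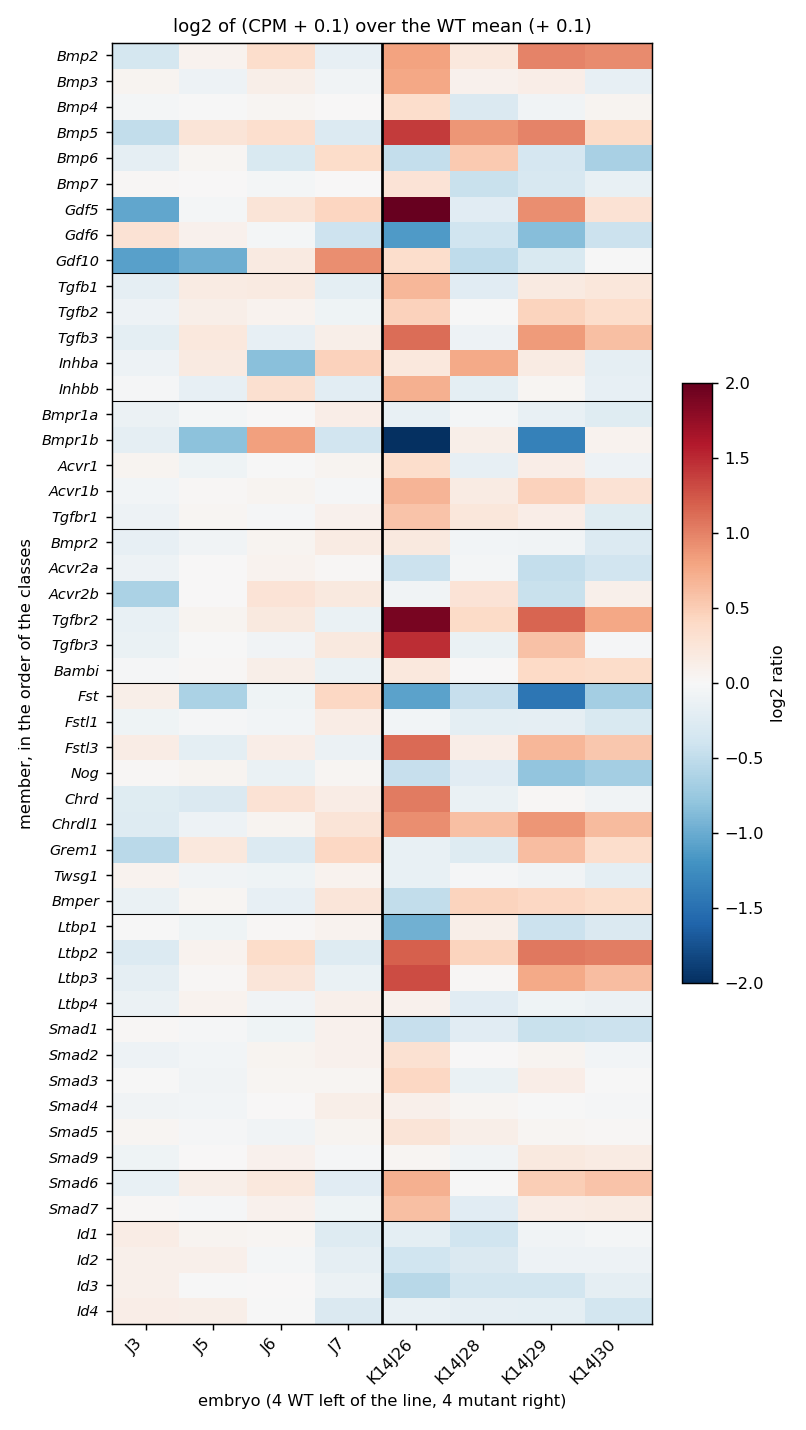
Log2 ratio of the CPM (plus 0.1) of each of the 50 genes in each of the 8 embryos to the mean of the 4 WT embryos (plus 0.1), with genes in rows by role and colour from -2 to 2. K14J26 holds the highest mutant value in 30 of the 50 genes and K14J28 the lowest in 26 of 50.

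Mutant embryos were not alike, and their order recurred across the pathway. The embryos at its ends, K14J26 and K14J28, were also those apart in the marker lists above, whose part in the order was not tested. K14J26 had the highest mutant value in 30 of the 50 genes (60%, where it had the highest in 35.8% of all genes tested), and K14J28 the lowest in 26 (52%, against 30.8%). Among the 7 genes that rose, K14J26 was highest in 6 and K14J28 lowest in 6. Over all genes called higher those shares were 63.0% and 57.2%, so among genes that rose the order was not particular to the pathway. Over all genes tested, K14J26 was also the lowest mutant in 35.3% and K14J28 the highest in 30.1%. Of the 4 genes that fell, K14J28 was the highest mutant in 3, as it was in 45.98% of all genes called lower. The mean log2 level of the 5 enamel genes ordered the mutants the same way, at 6.94 in K14J28, 8.17 in K14J30, 9.79 in K14J29 and 11.78 in K14J26, against 4.73 to 6.87 in WT.

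With the enamel level as a covariate, none of the 11 calls remained, at 3 pathway genes higher and 8 lower by an unadjusted p under 0.05 in edgeR and 298 genes called in the whole table. Since the enamel level differs between the genotypes without overlap, the covariate and the genotype cannot be fully told apart. Under it the log2 fold change was 0.07 for Tgfbr2 and Fstl3 and 0.06 for Acvr1b, and 0.31 for Bmp2, 0.34 for Bmp5, 0.39 for Ltbp2 and 0.56 for Chrdl1. Of the genes that fell, Fst was at -0.26, Nog at -0.37, Smad1 at -0.23 and Id3 at -0.22, so all 11 were nearer to 0 than without the covariate. Without K14J26 all 11 kept their sign, with 0.81 for Tgfbr2, 0.87 for Ltbp2, 0.78 for Bmp5, 0.76 for Bmp2, 0.47 for Fstl3, -0.55 for Nog and -0.81 for Fst.

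**Figure D4:**
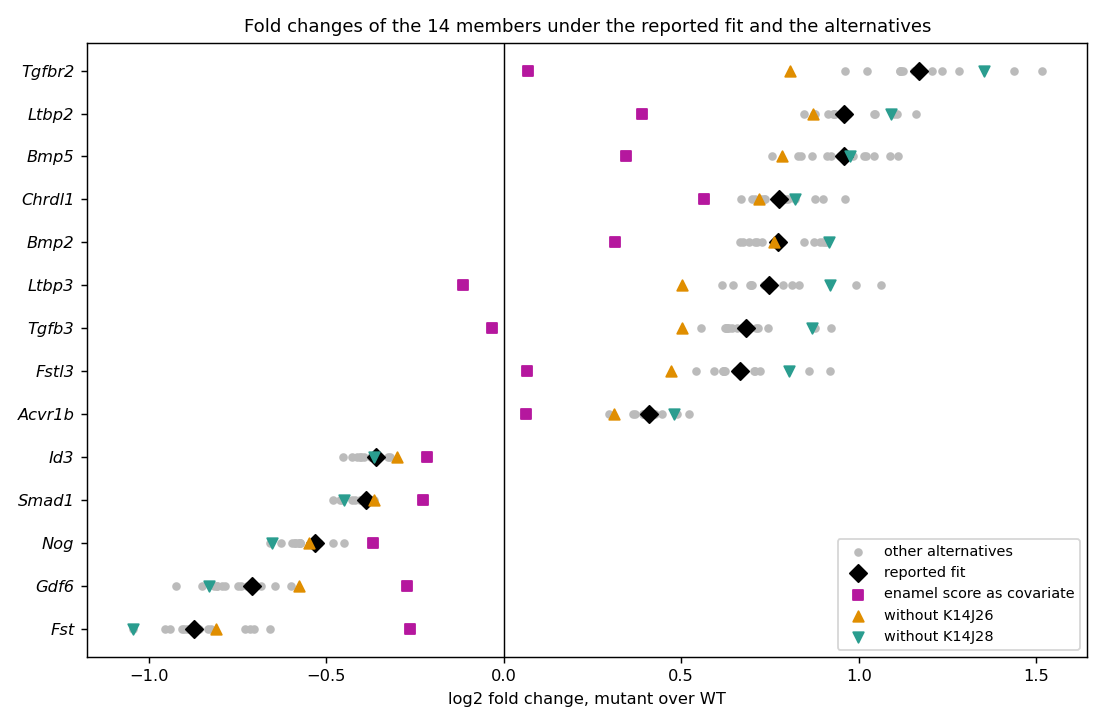
Log2 fold change of 14 pathway genes under the reported fit and each alternative, with 1 row per gene and 1 mark per alternative. The values keep their sign under other scalings, filters and tools, but some shift in size in either direction. Under limma-voom with sample weights, Bmp5 is at 0.75 (0.96 in the reported fit) and Nog at -0.66 (-0.53 in the reported fit). With the enamel level as a covariate the values move toward 0, and Tgfb3 (-0.03) and Ltbp3 (-0.11) change sign.

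With 4 embryos per genotype, the calls depended on single embryos more than the fold changes did. Without K14J29 none of the 50 genes was called in either direction, at 11 higher and 6 lower by an unadjusted p under 0.05 in edgeR, and without J3, J5 or J7 the counts of higher and lower calls were 0 and 1, 1 and 2, and 1 and 0. Leaving out J6 gave 4 and 1, K14J30 5 and 2, K14J26 6 and 4, and K14J28 12 and 6. The same embryos moved the whole table, from 2764 genes called to 420 without K14J29 and 4322 without K14J28. All genes called were 660, 839, 1407 and 536 without J3, J5, J6 and J7, 3095 without K14J26 and 2161 without K14J30. The call of Smad1 held in 6 of 8 such fits, those of Chrdl1 and Ltbp2 in 5, Bmp5 in 4, Bmp2, Acvr1b, Tgfbr2 and Id3 in 3, Nog and Fst in 2 and Fstl3 in 1. Over those 8 fits the highest adjusted p of a called gene lay between 0.0559 (Smad1) and 0.135 (Fst), and no fold change of the 11 genes changed sign. Leaving out the muscle-containing WT embryos J6 and J7 together left no pathway gene called, at 10 higher and 6 lower by an unadjusted p under 0.05, and 7 genes in the whole table, with log2 fold changes of 1.20 for Tgfbr2, 1.05 for Ltbp2, 0.96 for Chrdl1 and -0.39 for Smad1.

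A further 103 genes of the pathway were listed outside the 50, of which 102 had a row and 82 were tested. Of these, 7 rose and 11 fell, 22.0% of those tested against 16.1% of all genes. The upward share was 8.54% against 9.52% of all genes, and the downward share 13.4% against 6.61%. The 10 called genes with the largest fold changes are described here. Itgb6, the integrin subunit that frees TGF-beta from its latent complex and is made by ameloblasts, measured 27.6, 36.7, 37.6 and 24.3 CPM in WT and 151, 38.8, 84.6 and 51.6 CPM in mutants (log2 fold change 1.37 ± 0.38 SE, adjusted p = 0.0412). All mutants were above WT, K14J28 barely. Cdkn1a, which encodes the cell-cycle inhibitor p21 and answers to TGF-beta among other signals, measured 184, 250, 287 and 189 CPM in WT and 942, 295, 643 and 461 CPM in mutants (1.36 ± 0.32 SE, adjusted p = 0.0247). Pmepa1, a TGF-beta-induced protein that sequesters receptor-regulated Smads, was at 24.0 to 29.98 CPM in WT and 36.2 to 74.6 CPM in mutants (0.92 ± 0.22 SE, adjusted p = 0.0262). These 3 genes shared the order of the mutants seen for Tgfbr2, with K14J26 highest and K14J28 lowest. With the enamel level as a covariate none of them was called, at log2 fold changes of -0.17 for Itgb6, 0.11 for Cdkn1a and 0.19 for Pmepa1.

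The ligand Bmp8a was at 13.4 to 25.5 CPM in WT and 27.4 to 55.0 CPM in mutants (log2 fold change 0.96 ± 0.26 SE, adjusted p = 0.036), and its log2 fold change was 0.09 with the enamel covariate. Sost, which encodes the osteocyte protein sclerostin, rested on few reads, 0 to 9 counts per WT embryo and 8 to 63 per mutant (2.76 ± 0.80 SE, adjusted p = 0.0463), and K14J28 was within the WT range. Among the genes that fell were secreted modulators: Nbl1, a DAN-family BMP antagonist, at 58.1 to 77.2 CPM in WT and 31.4 to 47.8 CPM in mutants (-0.69 ± 0.14 SE, adjusted p = 0.0167), Kcp, a chordin-like enhancer of BMP signalling, at 12.7 to 16.3 and 9.63 to 11.7 CPM (-0.47 ± 0.11 SE, adjusted p = 0.0236), and Wfikkn1, which binds myostatin and GDF11, at 3.58 to 4.72 and 1.63 to 3.22 CPM (-0.87 ± 0.21 SE, adjusted p = 0.0284). Fibrillin-2 (Fbn2), a microfibril protein that anchors BMP complexes, was at 392 to 595 CPM in WT and 208 to 332 CPM in mutants (-0.81 ± 0.17 SE, adjusted p = 0.0174). Tgif2, a Smad corepressor, measured 53.4, 53.3, 53.0 and 55.5 CPM in WT and 40.9, 37.8, 30.7 and 37.8 CPM in mutants (-0.55 ± 0.09 SE, adjusted p = 0.00977), and its call alone among these 10 held when each of the 8 embryos was left out in turn. The antisense gene 5430405H02Rik covers 56.7% of the Tgif2 exon bases, at 9.34 CPM in WT. With the enamel covariate the log2 fold changes were -1.45 for Wfikkn1, still called (adjusted p = 0.0343), -0.86 for Nbl1, -0.56 for Tgif2, -0.44 for Fbn2 and -0.37 for Kcp, none of the other 4 called. The other 8 calls were Zfyve16 and Rnf111 upward, and Rgmb, Ppm1a, Ctdsp1, Ctdsp2, Strap and the tooth homeobox gene Msx1 downward.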

How the data were processed

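RNA-seq counts of 8 molar pools (4 WT, 4 K14Cre;Jagged1 fl/fl) were analysed. The deposited values are whole-number counts per gene, which the authors made from single-end reads of an unstranded kit, trimmed and aligned with STAR to GRCm38 (GRCm38.p3 in the submitters' processing notes). The counting tool is given as GenomicRanges in the methods and featureCounts in those notes, and settings for strand and shared reads are not given in the sources used here. Names and positions came from GENCODE M21 on GRCm38.

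Counts were fitted on the whole table with edgeR 4.0.16 in R 4.3.3 (TMM scaling, quasi-likelihood test, 10 counts in at least 2 of 4 embryos of a genotype, Benjamini-Hochberg adjustment, threshold 0.05). SE is the absolute log2 fold change over the root of its F statistic, and CPM used TMM-scaled totals of the filtered genes. With 17327224 to 29792467 counts per embryo, 3 counts stood for at most 0.166 CPM, a floor that covers counting error only, while the SE also includes the spread between embryos. Each embryo was a separate sample. Named genes were those called or past the study's criteria, the 10 largest called changes outside the 50, and members lying close to a threshold or completing a group (Tgfb2, Acvr2a, Bambi, Fstl1, Smad6, Id1, Id2 and Id4), chosen after their values were seen. The members and lists were chosen with earlier results of these data known. Alternatives were other scalings, filters and tools (DESeq2 1.42.0, limma 3.58.1), covariates for enamel, muscle and Xist level, and leaving out embryos, 2 pairs of which were chosen after seeing the data.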

Additional observations from a re-analysis of the deposited data

Results flagged for a closer look

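Within a genotype, the highest and the lowest of 4 embryos were set against the other 3 by Dixon's ratio, the gap to the nearest embryo over the whole range. Of 122 such groups over Jag1, the 50 genes and the 10 other genes described, 4 exceeded the critical value for 4 embryos, fewer than the 1 in 20 that chance gives.

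Noggin (Nog) was at 9.75 CPM in WT embryo J6, with the nearest WT embryo at 10.9 CPM and the highest at 11.1 CPM (ratio 0.891), so the gap was small in size. Chordin (Chrd) was at 19.998 CPM in mutant K14J26, and the next mutant was at 9.84 CPM (ratio 0.911). Bmper was at 4.52 CPM in the same embryo, below 8.30 CPM in the nearest mutant (ratio 0.894). Smad1 was at 55.2 CPM in mutant K14J28, above 47.7 CPM in the next one (ratio 0.917), which placed that embryo closest to WT. K14J26 also had the highest enamel transcript share of the 8 embryos, at 9.64% of counts.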

How the results depend on the processing

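No paired analysis was possible because the genotypes share no replicate numbers (3, 5, 6 and 7 against 26, 28, 29 and 30). The counts of 7 higher and 4 lower genes stayed within 1.5 times under RLE and upper-quartile scaling, library size only, robust edgeR, each of the 3 count filters, leaving out the 20 most abundant genes, and thinning to the smallest total. Higher calls were 11 under DESeq2 and 12 under limma-voom with sample weights, where 2244 and 2641 of all genes were called higher. With library size only, the median of all genes shifted by -0.10, 24 of the 50 fold changes were above 0 and 1 of 6 receptor-regulated and common Smads in place of 5, and the split of calls over all genes was 855 higher and 1060 lower in place of 1631 and 1133 (1363 and 1448 with upper-quartile scaling).

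Higher and lower calls were both 0 with the enamel level, and both 0 with the muscle level as covariate (11 higher and 8 lower at an unadjusted p under 0.05, 211 genes called in all). With the muscle level the log2 fold changes were 1.117 for Tgfbr2, 1.04 for Ltbp2, 0.90 for Bmp2 and Chrdl1, -0.58 for Nog and -0.73 for Fst. Genes higher by the study's criteria were 2 with the enamel level and 14 with Xist. With Xist, 3 genes were lower by those criteria and 1 was called lower by adjusted p. The enamel level reversed Tgfb3 (-0.033), Ltbp3 (-0.11), Smad6 (-0.0198) and Itgb6 (-0.17). Without WT J6 and J7, higher and lower calls were 0 and 0, and Jag1 kept -1.18 at an adjusted p of 0.114.

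The other pathway genes, 7 higher and 11 lower, were 4 higher with library size only, 13 and 18 with limma-voom, 0 and 3 with the enamel level, 0 and 0 with the muscle level, 6 lower with Xist, and 0 and 0 without WT J6 and J7. Leaving out each embryo in turn gave 0 to 12 higher and 0 to 6 lower calls, 7 to 11 and 1 to 5 by the study's criteria, and 0 to 12 and 1 to 15 for the other pathway genes. The cause of these differences was not tested. The upper ends for the 50 genes by adjusted p were reached without K14J28. Depth limited Gdf5, Bmpr1b and Sost, each under 10 counts in at least 1 embryo.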
